A study of Mus musculus with 47 samples.

Results

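Myomaker (Mymk) and myomixer (Mymx) are the 2 genes described here, out of 45706 genes in the deposited tables. They were chosen by name, as the muscle fusogens, and their transcripts were summed per gene in each of 47 RNA-seq libraries. Myogenin (Myog), the transcription factor gene that marks committed myoblasts, was read in the same libraries as the comparator. The cells were C2C12, an immortalized mouse myoblast line, in 3 inducible derivatives. iMyoD1 cells kept their endogenous MyoD1 and carried Halo-tagged MyoD1 under a doxycycline (dox)-responsive promoter, and the iCdh23 and iMcam cells carried inducible Cdh23, a cadherin, or inducible Mcam, an immunoglobulin-family adhesion receptor. The iMyoD1 cells were sampled in growth medium (0 h of serum starvation, 24 h of dox or vehicle) and after 24, 48 or 120 h of serum starvation with dox or vehicle for the same time. At 120 h they were taken as whole cultures or passed through a 40 µm strainer, which gave a flow-through enriched in myoblasts and a retentate enriched in myotubes. The iCdh23 and iMcam cells were sampled at 48 h. Each of the 16 groups held 3 biological replicates per the labels, except the myoblast-enriched fraction with dox, which held 2 (replicates 2 and 3). Transgenes were integrated by transposition under drug selection. No line without a transgene was given dox in these samples, so the induced gene and dox itself cannot be told apart.

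Skeletal muscle fibers form when mononucleated myoblasts leave the cell cycle, adhere and merge their membranes. Myomaker is a multipass membrane protein that acts early in the merging of the outer membrane leaflets, and myomixer is a micropeptide that acts with it at the later step of pore formation. Both are expressed briefly in differentiating myoblasts, and both genes are known targets of the MyoD family of transcription factors, to which myogenin belongs.

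Mymk (ENSMUSG00000009214) lies on GRCm38 chr2:27061636-27072179, minus strand, and Mymx (ENSMUSG00000079471) on chr17:45600971-45602102, minus strand. Myog (ENSMUSG00000026459) lies on chr1:134289989-134292548, plus strand, and none of the 3 genes overlaps another annotated gene. The main Mymk transcript is 1382 nt long, while the 3 Mymx transcripts in the deposited tables are 442, 616 and 804 nt long. The Mymx coding sequence is shown because its size sets the gene apart from Mymk: it spans 255 bases and 84 codons before the stop, at chr17:45601417-45601671, with the start and stop codons in capitals. It is the same in Mymx-201 and Mymx-203, which held a median of 32.4% and 63.7% of the Mymx counts over the 32 libraries with at least 100 counts.
Mymx: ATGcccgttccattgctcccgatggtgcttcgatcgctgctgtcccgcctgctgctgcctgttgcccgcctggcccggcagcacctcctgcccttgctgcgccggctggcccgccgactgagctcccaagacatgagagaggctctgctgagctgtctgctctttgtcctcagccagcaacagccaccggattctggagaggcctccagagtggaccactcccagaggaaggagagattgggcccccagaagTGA

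Mymk has 2 annotated coding transcripts. Mymk-201 encodes 221 codons and Mymk-202 encodes 180, and they differ in their first coding exon. The starts of both coding sequences are shown because a single library, described with the fractions below, was assigned to the second one. Lower case marks the coding part of each first exon, which is not shared, 135 bases in Mymk-201 and 12 in Mymk-202. Capitals mark the first 48 of 531 shared coding bases, which begin in exon 2. The non-coding part of each first exon is not shown. On chromosome 2 these bases lie between 27067420 and 27072015 for Mymk-201 and between 27067420 and 27067751 for Mymk-202.
Mymk-201: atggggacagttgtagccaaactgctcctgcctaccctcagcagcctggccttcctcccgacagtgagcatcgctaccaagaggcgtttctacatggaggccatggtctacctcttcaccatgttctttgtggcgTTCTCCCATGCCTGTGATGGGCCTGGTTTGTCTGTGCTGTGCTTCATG
Mymk-202: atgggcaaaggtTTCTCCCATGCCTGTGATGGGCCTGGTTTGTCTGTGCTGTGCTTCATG

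Library totals ran from 15066338 to 50950674 estimated counts (median 22837926). Levels are given as CPM, counts scaled to a common library size, with TMM factors over all 47 libraries, and they are compared between genes only after division by transcript length. The 3 deposited tables hold the 0 and 24 h libraries, the 48 and 120 h whole-culture iMyoD1 libraries, and the fractions with the iCdh23 and iMcam libraries. Only the libraries of 48 h and later carry a batch tag in the labels, so batch and the step from 24 to 48 h cannot be told apart. Of the induced genes, Mcam rose in iMcam cells with dox from 17.9 to 71.3 CPM (edgeR adjusted p = 1.2e-04). Cdh23 in iCdh23 cells was 385 CPM without dox and 482 CPM with it (edgeR adjusted p = 0.102), beside 9.38 CPM in untreated iMyoD1 cells at 48 h. Myod1 in iMyoD1 cells at 0 h was 181 CPM without dox and 192 CPM with it (edgeR adjusted p = 0.201), and Myod1 was lower with dox at 24 h (log2 −0.23, edgeR adjusted p = 0.0041) and 48 h (−0.36, edgeR adjusted p = 4.5e-04), against the label of the line, so "with dox" means labelled as such throughout. The adhesion genes also passed in the other lines: Mcam rose 7.81-fold in iCdh23 and, in unstrained iMyoD1 cells, between 1.88-fold at 48 h and 17.7-fold in whole cultures at 120 h, and Cdh23 rose 6.79-fold in iMcam and 12.5-fold in iMyoD1 at 24 h. Whether reads of the introduced copies count toward Myod1, Cdh23 or Mcam is not known. Summed markers of adipocytes and of endothelial cells stayed below 1 CPM in every library, and 3 leukocyte markers summed to at most 6.18 CPM, with Ptprc at 0 counts in 40 libraries, Lyz2 in 2 and Cd68 in 0. The 3 fibroblast markers summed to at most 361 CPM, in the untreated myoblast-enriched fraction, where Dcn had a group mean of 176 CPM.

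Both fusogens were near the detection limit at 0 and 24 h and were abundant from 48 h on, except in iCdh23 with dox. In that group the Mymx libraries overlapped those of iMyoD1 cells at 24 h with dox. Mymk ranged from 0.275 ± 0.187 CPM (SD, n = 3) in untreated cells at 0 h to 1360 CPM in untreated whole cultures at 120 h, and the latter lay above every library of the next group. The following groups were untreated iMyoD1 cells at 48 h (896 CPM), the myotube-enriched fraction without dox (891 CPM) and with dox (883 CPM), and whole cultures with dox at 120 h (750 CPM), and each overlapped its neighbor in this order. Mymx followed another order: its highest group was untreated iMyoD1 cells at 48 h (288 CPM), followed by the myotube-enriched fraction without dox (198 CPM), the myoblast-enriched fraction without dox (179 CPM) and the myotube-enriched fraction with dox (176 CPM), again with overlap between neighbors. The group in which Mymk was highest, untreated whole cultures at 120 h, ranked 9 for Mymx with 60.5 CPM. From 48 h on, the lowest group was iCdh23 with dox for both genes, with 6.97 CPM of Mymk and 1.49 CPM of Mymx.

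**Figure D1:**
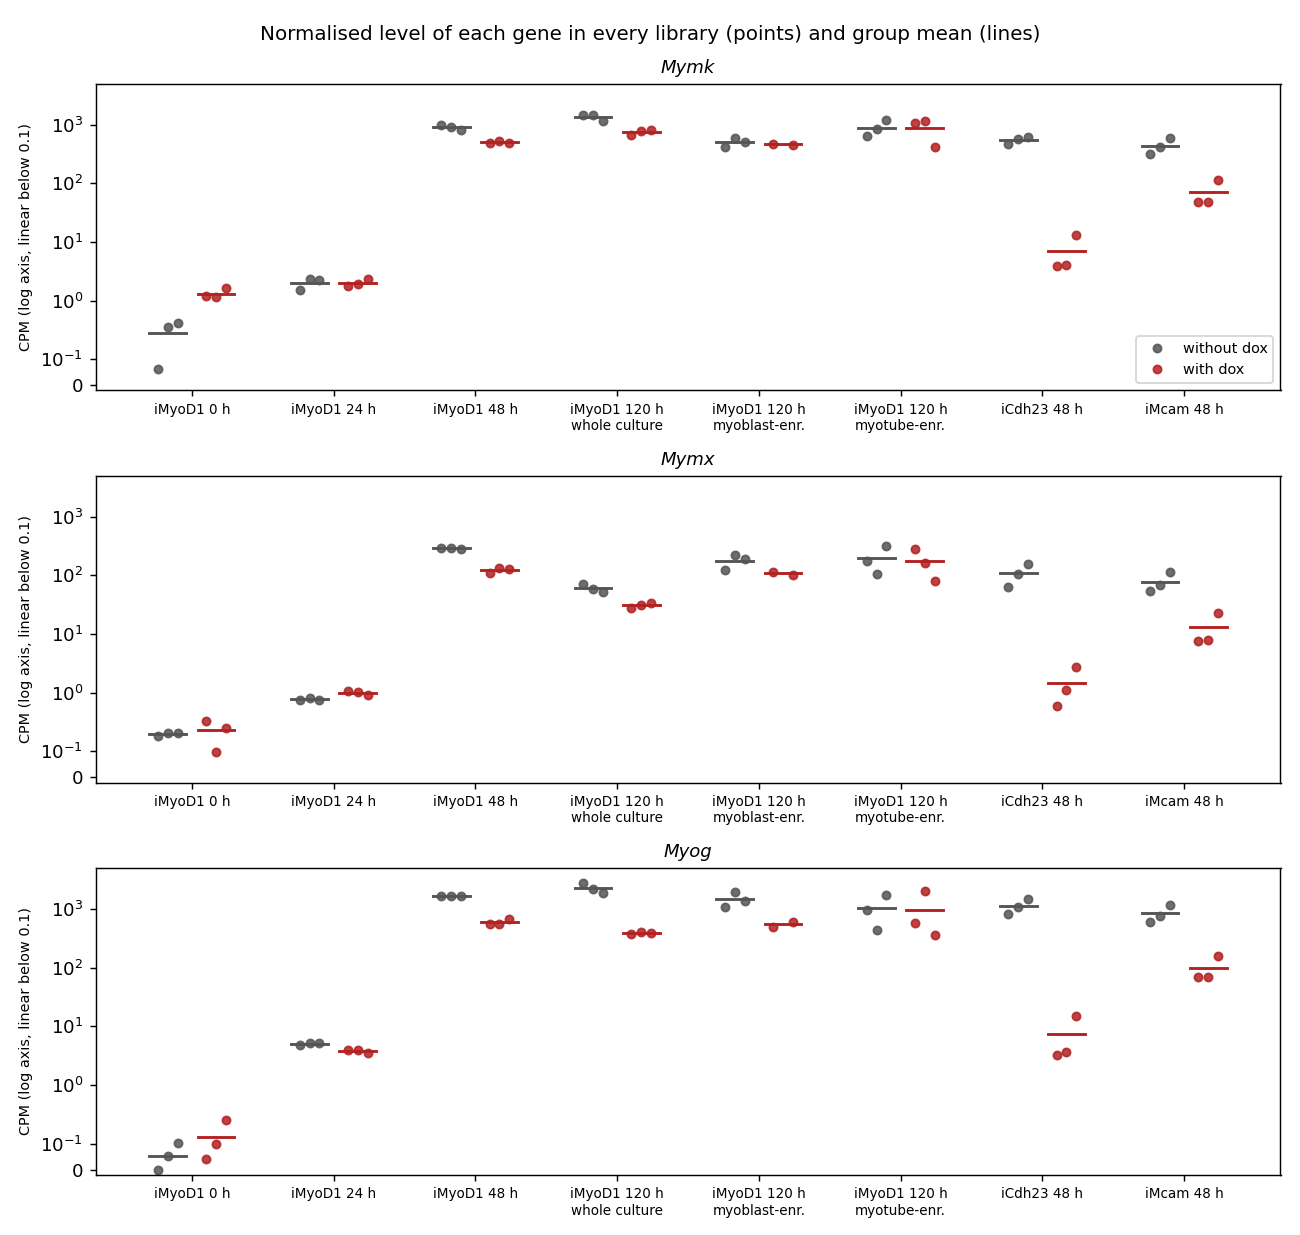
Levels of Mymk, Mymx and Myog in the 47 libraries. Each point is 1 library, the horizontal bar is the group mean, and the vertical axis is CPM with TMM factors on a log scale with linear steps near 0. Both fusogens and Myog lie at or below 5.21 CPM at 0 and 24 h. Of the 48 h groups, only iCdh23 cells with dox have means close to that range (6.97 CPM of Mymk) or inside it (1.49 CPM of Mymx).

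Over time without dox, the largest step of both fusogens was between 24 and 48 h. Mymk was at 0.0608, 0.357 and 0.407 CPM at 0 h, at 1.54, 2.32 and 2.21 CPM at 24 h and at 967, 899 and 823 CPM at 48 h. Mymx was at 0.182, 0.204 and 0.204 CPM, then at 0.747, 0.810 and 0.759 CPM, then at 294, 292 and 278 CPM. No libraries of neighboring time points overlapped for either gene. Marker sums moved too. At 0, 24, 48 and 120 h (whole cultures) without dox, myotube markers summed to 2.23, 7.94, 12667 and 16045 CPM. Proliferating-myoblast markers summed to 2124, 605, 941 and 216 CPM, muscle stem cell markers to 448, 318, 234 and 141 CPM, and fibroblast markers to 26.2, 3.83, 37.6 and 35.7 CPM. Their part in the time course was not tested.

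From 0 to 24 h Mymk rose 7.06-fold (edgeR adjusted p = 3.3e-05) and Mymx 3.87-fold (edgeR adjusted p = 0.00107), where 37.3% of the genes tested rose, and the Mymx call was lost with all 16 groups in 1 fit (edgeR adjusted p = 0.082). Myog went from 0, 1 and 2 counts to 115, 141 and 144 counts in the same step. From 24 to 48 h, where 38.4% of genes rose, Mymk rose 455-fold (log2 8.83, SE 0.12) and Mymx 384-fold (log2 8.58, SE 0.09), beside 344-fold for Myog. The step from 48 to 120 h in whole cultures separated the 2 fusogens. Mymk went on to 1475, 1443 and 1162 CPM, while Mymx went to 71.3, 58.9 and 51.5 CPM, so that every later Mymk library lay above and every later Mymx library below those at 48 h. Mymk rose by 0.64 (log2, SE 0.11, edgeR adjusted p = 8.6e-04), a step in which 33.0% of genes rose, and Mymx fell by 2.21 (SE 0.12, edgeR adjusted p = 8.5e-07), a step in which 34.1% fell. Myog rose by 0.48 (edgeR adjusted p = 0.0087). The calls for Mymk and Myog in this step were lost with all 16 groups in 1 fit (edgeR adjusted p = 0.129 and 0.417).

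With dox both fusogens also took their largest step between 24 and 48 h, and Mymk rose and Mymx fell from 48 to 120 h. From 0 to 24 h, where 34.0% of genes rose, Mymk was 0.64 higher on the log2 scale (SE 0.25, edgeR adjusted p = 0.0339), a call that was lost without 0 h replicate 1 or 2 or 24 h replicate 2 or 3 (0.52 to 0.67), and Mymx was 2.11 higher (SE 0.40, edgeR adjusted p = 3.8e-04). From 24 to 48 h, where 36.9% of genes rose, Mymk rose 242-fold and Mymx 125-fold. From 48 to 120 h Mymk rose by 0.62 and Mymx fell by 1.98 (edgeR adjusted p = 4.8e-05 and 5.3e-09), where 34.9% of genes rose and 38.6% fell, while Myog fell by 0.61. With all 16 groups in 1 fit, the Mymk calls from 0 to 24 h and from 48 to 120 h and the Myog call were lost (edgeR adjusted p = 0.317, 0.123 and 0.228), and DESeq2 also lost the first (adjusted p = 0.0559).

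Mymx in the 120 h whole cultures was also low beside the strained fractions of the same age. On the log2 scale, untreated whole cultures differed from the mean of the fractions by 0.95 for Mymk, 0.85 for Myog and −1.65 for Mymx, and whole cultures with dox by 0.33, −0.81 and −2.03. Divided by annotated transcript length, Mymk exceeded Mymx 10.8 ± 0.71-fold and 10.6 ± 0.94-fold (SD, n = 3 each) in whole cultures without and with dox. In every other library from 48 h on, Mymk exceeded Mymx between 1.21-fold and 3.86-fold. Short transcripts moved with this. Genes whose longest transcript was at most 1000 nt had a median difference between whole culture and fractions of −0.61 without dox and −0.88 with dox, and 12.9% and 17.4% of them were at or below Mymx. From 48 to 120 h without dox their median was −0.72 (n = 1002), beside 0.01 for longer genes, and 16.4% were at or below Mymx. Transcripts up to 1000 nt held between 9.7% and 10.9% of all counts in the 120 h whole cultures, between 14.4% and 17.4% in iMyoD1 libraries at 48 h, between 12.5% and 26.9% in the fractions and between 8.4% and 11.1% in the iCdh23 and iMcam libraries. Whole cultures and fractions lie in different deposited tables, so table, library preparation and culture cannot be told apart there, and the part of transcript length in the lower Mymx was not tested.

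In iMyoD1 cells Mymk was higher with dox before differentiation and both fusogens were lower from 48 h on in whole cultures. At 0 h, Mymk was at 1.19, 1.13 and 1.63 CPM with dox, which is 29, 23 and 32 estimated counts, against 1, 7 and 8 counts without. The groups did not overlap, and Mymk was 4.56-fold higher with dox (log2 2.19, SE 0.46, edgeR adjusted p = 0.00184), where 37.8% of genes passed and 19.1% were higher. Marker sums also moved at 0 h without overlap, from 2.23 to 3.92 CPM for 8 myotube markers and from 2124 to 1890 CPM for 6 proliferating-myoblast markers. The sums went from 448 to 333 CPM for 2 muscle stem cell markers and from 26.2 to 20.3 CPM for 3 fibroblast markers. Of the myotube markers, 1 with dox and 0 without reached a group mean of 1 CPM, and of the fibroblast markers 1 did in each group. Cd34 alone held 423 of the 448 CPM. The part of these markers in the result was not tested. Mymx was at 0.328, 0.0986 and 0.254 CPM with dox and between 0.182 and 0.204 CPM without, and Mymx and Myog were both below the filter on low counts and were not tested. At 24 h, where 62.8% of genes passed, Mymk was at 1.76, 1.91 and 2.31 CPM with dox, within the range of the untreated libraries, with a log2 fold change of 0.01 (95% interval −0.46 to 0.48, edgeR adjusted p = 0.972). Mymx was at 1.06, 1.01 and 0.902 CPM, above the untreated libraries, with a log2 fold change of 0.38 that did not pass (interval −0.21 to 0.97, edgeR adjusted p = 0.238). Myog was lower by 0.38 (edgeR adjusted p = 0.018), and that call was lost without replicate 3 of either group, with DESeq2 (adjusted p = 0.0548) and with all 16 groups in 1 fit (edgeR adjusted p = 0.606). At 24 h the muscle stem cell markers went from 318 to 124 CPM with dox and the fibroblast markers from 3.83 to 5.03 CPM, both without overlap. The myotube markers (7.94 and 8.68 CPM) and the proliferating-myoblast markers (605 and 575 CPM) overlapped. Their part was not tested. The Mymk difference with dox was smaller at 24 h than at 0 h by 2.23 on the log2 scale (SE 0.50, edgeR interaction adjusted p = 0.00232), in a test that 34.1% of genes passed, and that call was lost with all 16 groups in 1 fit (−2.20, edgeR adjusted p = 0.131).

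At 48 h both fusogens were lower with dox. Mymk was at 481, 528 and 478 CPM and Mymx at 110, 136 and 129 CPM, all below the untreated libraries. Mymk fell 1.81-fold (log2 −0.86, SE 0.08, edgeR adjusted p = 5.1e-06) and Mymx 2.31-fold (log2 −1.21, SE 0.08, edgeR adjusted p = 5.6e-07), in a comparison where 56.6% of genes passed and 28.7% were lower. With all 16 groups in 1 fit the Mymk call was lost (−0.85, edgeR adjusted p = 0.0541). Myog, at 553, 562 and 681 CPM with dox against 1692, 1666 and 1689 CPM, fell 2.82-fold. The effect of dox differed from that at 24 h by −0.88 for Mymk (edgeR interaction adjusted p = 0.00111) and −1.58 for Mymx (adjusted p = 2.9e-05), and 43.4% of genes passed that test, but neither passed with all 16 groups in 1 fit (adjusted p = 0.334 and 0.150). The summed level of 8 myotube markers moved with the fusogens, from 12667 CPM without dox to 4880 CPM with it, and so did that of 6 proliferating-myoblast markers, from 941 to 320 CPM, while 3 fibroblast markers went from 37.6 to 53.9 CPM and 2 muscle stem cell markers from 234 to 276 CPM. In these bulk samples, fewer differentiating cells and less RNA per cell cannot be told apart.

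In whole cultures at 120 h the fusogens were lower with dox by about as much as at 48 h, while Myog was lower by more. Mymk was at 676, 774 and 802 CPM with dox and Mymx at 27.5, 31.8 and 34.0 CPM, and neither overlapped the untreated cultures. Mymk fell 1.82-fold (log2 −0.87, SE 0.11, edgeR adjusted p = 2.9e-04) and Mymx 1.96-fold (log2 −0.97, SE 0.14, edgeR adjusted p = 5.4e-04), where 45.2% of genes passed and 23.7% were lower. The Mymx call was lost with all 16 groups in 1 fit (−0.96, edgeR adjusted p = 0.0505). Myog was at 370, 399 and 385 CPM against 2774, 2209 and 1893 CPM (log2 −2.58, SE 0.14). The change of the dox effect from 48 to 120 h was −1.09 for Myog (edgeR interaction adjusted p = 2.7e-04), in a test that 34.1% of genes passed, and that call was lost with all 16 groups in 1 fit (−1.08, edgeR adjusted p = 0.261). It was −0.00 for Mymk (interval −0.31 to 0.30) and 0.24 for Mymx (interval −0.11 to 0.59), neither of which passed. The summed myotube markers went from 16045 CPM without dox to 12376 CPM with it at 120 h, and the proliferating-myoblast markers from 216 to 392 CPM. The muscle stem cell markers went from 141 to 164 CPM, also without overlap, and the fibroblast markers from 35.7 to 38.1 CPM, with overlap. The part of these markers in the result was not tested.

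In the strained fractions no difference of either fusogen passed with dox in the main edgeR fit, which did not pair libraries by replicate number. Same-numbered libraries with and without dox varied together in the myoblast-enriched fraction (residual correlations 0.431 and 0.300) but not in the myotube-enriched one. In the myoblast-enriched fraction Mymk was at 468 and 455 CPM with dox and at 413, 592 and 499 CPM without, and the groups overlapped (log2 −0.11, interval −0.54 to 0.31, edgeR adjusted p = 0.758). Mymx was at 114 and 103 CPM with dox, below 126, 222 and 190 CPM without, with a log2 fold change of −0.72 (interval −1.28 to −0.17, edgeR adjusted p = 0.133). That call depended on the setting: the difference passed with DESeq2 (−0.72, adjusted p = 0.0476), in edgeR without the filter on low counts (−0.73, adjusted p = 0.0033), with replicate number as a block (−0.92, edgeR adjusted p = 7.3e-04), and without untreated replicate 1 (−0.93, edgeR adjusted p = 0.031). Myog, at 488 and 600 CPM against 1070, 1963 and 1348 CPM, was lower by 1.42 (edgeR adjusted p = 0.0378), where 4.34% of genes passed, and lost the call without untreated replicate 3 or either library with dox, and with all 16 groups in 1 fit (edgeR adjusted p = 0.111). In this fraction the summed myotube markers went from 7102 CPM without dox to 5025 CPM with it and the fibroblast markers from 236 to 145 CPM, both without overlap, and the proliferating-myoblast markers from 680 to 441 CPM and the muscle stem cell markers from 351 to 271 CPM, with overlap. Their part in the result was not tested.

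The myotube-enriched libraries were widely spread. Mymk was at 1085, 1150 and 416 CPM with dox and at 647, 826 and 1200 CPM without, and Mymx was at 283, 163 and 80.5 CPM with dox and at 175, 104 and 315 CPM without. The groups overlapped for both genes. The log2 fold change was 0.03 for Mymk (interval −1.03 to 1.08) and −0.13 for Mymx (interval −1.37 to 1.11), and 0 of 14112 genes passed in edgeR, beside 79 at an unadjusted p under 0.05 and 1 gene with DESeq2. Replicate 1 with dox stood apart. In it 67.8% of the Mymk counts were assigned to Mymk-202, of whose first exon only the coding part is printed above. That transcript held at most 8.56 estimated counts in each of the other 46 libraries. The same library had 26.9% of its counts in transcripts up to 1000 nt, and without it the log2 fold changes were −0.18 for Mymk and −0.70 for Mymx, which did not pass. The dox effect of the 2 fractions differed by 0.11 for Mymk (interval −1.11 to 1.34) and 0.56 for Mymx (SE 0.71), a test in which 0 genes passed in edgeR, 218 had an unadjusted p under 0.05 and 2 passed with DESeq2.

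Between fractions, neither fusogen passed in edgeR. Without dox, Mymk was 0.84 higher on the log2 scale in the myotube-enriched fraction (interval 0.24 to 1.44, edgeR adjusted p = 0.183), which passed with DESeq2 (0.85, adjusted p = 0.0347), and its libraries lay above all of the others, in a comparison where 0.592% of genes passed (83 genes, and 676 with the replicate number as a block, neither fusogen among them). Mymx differed by 0.15 (interval −0.73 to 1.04). The 8 myotube markers summed to 18251 CPM in the myotube-enriched and 7102 CPM in the myoblast-enriched fraction. With dox, Mymk was 0.96 higher (interval −0.27 to 2.19) and Mymx 0.72 higher (interval −0.55 to 2.00, or 0.0876 higher with the replicate number as a block), and 0 genes passed in edgeR, beside 183 at an unadjusted p under 0.05 and 0 with DESeq2.

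**Figure D2:**
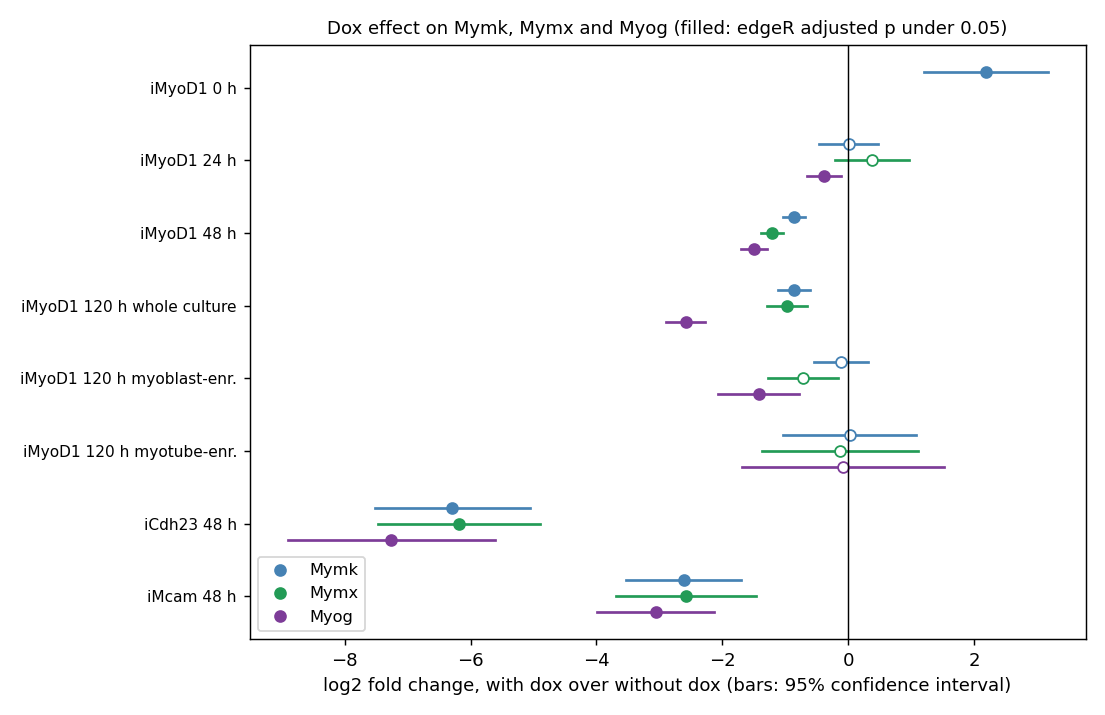
Log2 fold change of Mymk, Mymx and Myog with dox in the 8 comparisons of libraries with and without dox. Points are edgeR estimates, bars are 95% intervals, filled points passed at an adjusted p under 0.05, and genes below the filter at 0 h have no point. The estimates of both fusogens lie between −0.86 and −1.21 in iMyoD1 at 48 h and below −6 in iCdh23.

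In the lines with inducible adhesion genes, both fusogens were lower with dox, and far more so in iCdh23. Mymk in iCdh23 cells was at 460, 566 and 608 CPM without dox and at 3.87, 3.98 and 13.1 CPM with it, and Mymx at 64.3, 106 and 157 CPM and at 0.582, 1.10 and 2.78 CPM. Mymk fell 78.2-fold (log2 −6.29, SE 0.53, edgeR adjusted p = 4.8e-05) and Mymx 72.4-fold (log2 −6.18, SE 0.55, edgeR adjusted p = 6.2e-05), in a comparison where 63.8% of genes passed and 32.4% were lower. Myog fell 153-fold, from 811, 1089 and 1465 CPM to 3.24, 3.62 and 15.1 CPM. Replicate 3 was the highest of the libraries with dox for all 3 genes, and without it the log2 fold changes were −7.11 for Mymk, −6.98 for Mymx and −8.35 for Myog, all still past the threshold. The 8 myotube markers fell with them from a summed 6487 CPM to 64.7 CPM, and the 6 proliferating-myoblast markers from 746 CPM to 38.4 CPM, the fibroblast markers from 56.6 to 10.1 CPM and the muscle stem cell markers from 374 to 171 CPM.

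In iMcam cells Mymk was at 310, 412 and 582 CPM without dox and at 47.1, 48.3 and 114 CPM with it, and Mymx at 53.5, 67.8 and 115 CPM and at 7.70, 7.92 and 23.3 CPM. None of the groups overlapped. Mymk fell 6.12-fold (log2 −2.61, SE 0.39, edgeR adjusted p = 0.00167), Mymx 5.96-fold (log2 −2.58, SE 0.48, edgeR adjusted p = 0.00394) and Myog 8.32-fold, where 49.0% of genes passed and 24.8% were lower. Without replicate 3 with dox, the highest of its group, Mymx was at −3.31 on the log2 scale. The summed myotube markers went from 5767 to 835 CPM and the proliferating-myoblast markers from 618 to 107 CPM, while the fibroblast markers were at 68.6 and 68.3 CPM and the muscle stem cell markers at 264 and 260 CPM. The part of these markers in the results of the 3 lines was not tested.

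The effect of dox at 48 h differed between the lines. The log2 effect in iCdh23 minus that in iMyoD1 was −5.41 for Mymk (SE 0.48, edgeR interaction adjusted p = 3.2e-06) and −4.95 for Mymx (SE 0.51, adjusted p = 1.0e-05), a test that 35.8% of genes passed. Between iCdh23 and iMcam it differed by −3.65 for Mymk (SE 0.66, edgeR adjusted p = 0.00544) and −3.58 for Mymx (SE 0.79, edgeR adjusted p = 0.0147), a test that 10.6% of genes passed. Without iCdh23 dox replicate 3 these differences were −6.26 and −5.77 against iMyoD1 and −4.48 and −4.38 against iMcam, and without iMcam dox replicate 3 the last was −2.86, all past the threshold. Between iMcam and iMyoD1 it differed by −1.76 for Mymk (SE 0.41, edgeR adjusted p = 0.0265), where 6.41% of genes passed, and by −1.37 for Mymx, which did not pass (interval −2.43 to −0.31, edgeR adjusted p = 0.116). The Mymk call was lost without iMcam dox replicate 2, without any untreated iMyoD1 library or without iMyoD1 dox replicate 2 or 3, as well as with all 16 groups in 1 fit (−1.78, edgeR adjusted p = 0.0817), and over all libraries left out in turn the value was between −2.32 and −1.50. The Mymx difference passed without iMcam dox replicate 3 (−2.12, edgeR adjusted p = 0.0036) and with the replicate number as a block (−1.46, edgeR adjusted p = 0.0019). Same-numbered libraries varied together in all 3 pairs of iMcam but not of iMyoD1. Comparisons with iMyoD1 also cross the deposited tables. Without dox, iCdh23 and iMcam cells differed by 0.32 for Mymk (interval −0.22 to 0.85) and 0.46 for Mymx (interval −0.41 to 1.33), and neither passed, where 0.409% of genes did.

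Set against Myog in the same libraries, both fusogens made up more with dox than without. Per transcript length, the Mymk to Myog ratio at 48 h was 0.618, 0.584 and 0.528 in untreated iMyoD1 cells and 0.941, 1.02 and 0.760 with dox. It was 0.614, 0.562 and 0.449 against 1.29, 1.19 and 0.936 in iCdh23, and 0.553, 0.597 and 0.535 against 0.727, 0.757 and 0.771 in iMcam. The ratio was higher with dox in every line with no overlap, by 1.56-fold, 2.10-fold and 1.34-fold on the counts. An exact two-sided permutation test within the 3 lines gave a mean log2 difference of 0.71 (p = 0.00025, adjusted p = 0.00075 over 6 tests, 8000 relabellings). The Mymx to Myog ratio was higher by 1.22-fold, 2.33-fold and 1.33-fold in iMyoD1, iCdh23 and iMcam, also with no overlap. The mean log2 difference was 0.64 (exact permutation p = 0.00025, adjusted p = 0.00075). In iCdh23 with dox it rests on few estimated counts, 14, 34 and 78 of Mymx beside 78, 112 and 423 of Myog. Mymk relative to Mymx differed by 0.07 (exact permutation p = 0.586), and its ranges overlapped in iCdh23 and iMcam but not in iMyoD1, where it was 1.28-fold higher with dox.

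At 120 h the Mymk to Myog ratio was higher with dox by a mean of 1.05 on the log2 scale over the whole cultures and both fractions (exact permutation p = 0.00725, adjusted p = 0.0145, 4000 relabellings). In whole cultures it went per length from 0.575, 0.707 and 0.664 to 1.98, 2.10 and 2.25, and in the myoblast-enriched fraction from 0.418, 0.326 and 0.400 to 1.04 and 0.820. In the myotube-enriched fraction the groups overlapped, with 0.725, 2.04 and 0.756 without dox and 2.24, 0.624 and 1.23 with it. The Mymx to Myog ratio was higher by a mean of 0.79 (exact permutation p = 0.01925, adjusted p = 0.0289), with no overlap in whole cultures (3.04-fold) or in the myoblast-enriched fraction (1.62-fold) and with overlap in the myotube-enriched one (1.04-fold). This call was lost when any of 8 of the 17 libraries was left out: any untreated whole culture, whole-culture dox replicate 3, or replicate 1 or 3 of either myotube-enriched group (mean difference 0.58 to 0.79, largest adjusted p = 0.087). Mymk relative to Mymx differed by 0.26 (exact permutation p = 0.128, adjusted p = 0.154). These tests relabelled the fractions independently, although flow-through and retentate come from strained cultures that same-numbered libraries may share. With same-numbered fractions relabelled together, an alternative added after seeing the data, the exact permutation p was 0.005 for Mymk to Myog, which is the smallest that its 400 relabellings can give, 0.015 for Mymx to Myog and 0.115 for Mymk to Mymx (adjusted p = 0.01, 0.0225 and 0.138).

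**Figure D3:**
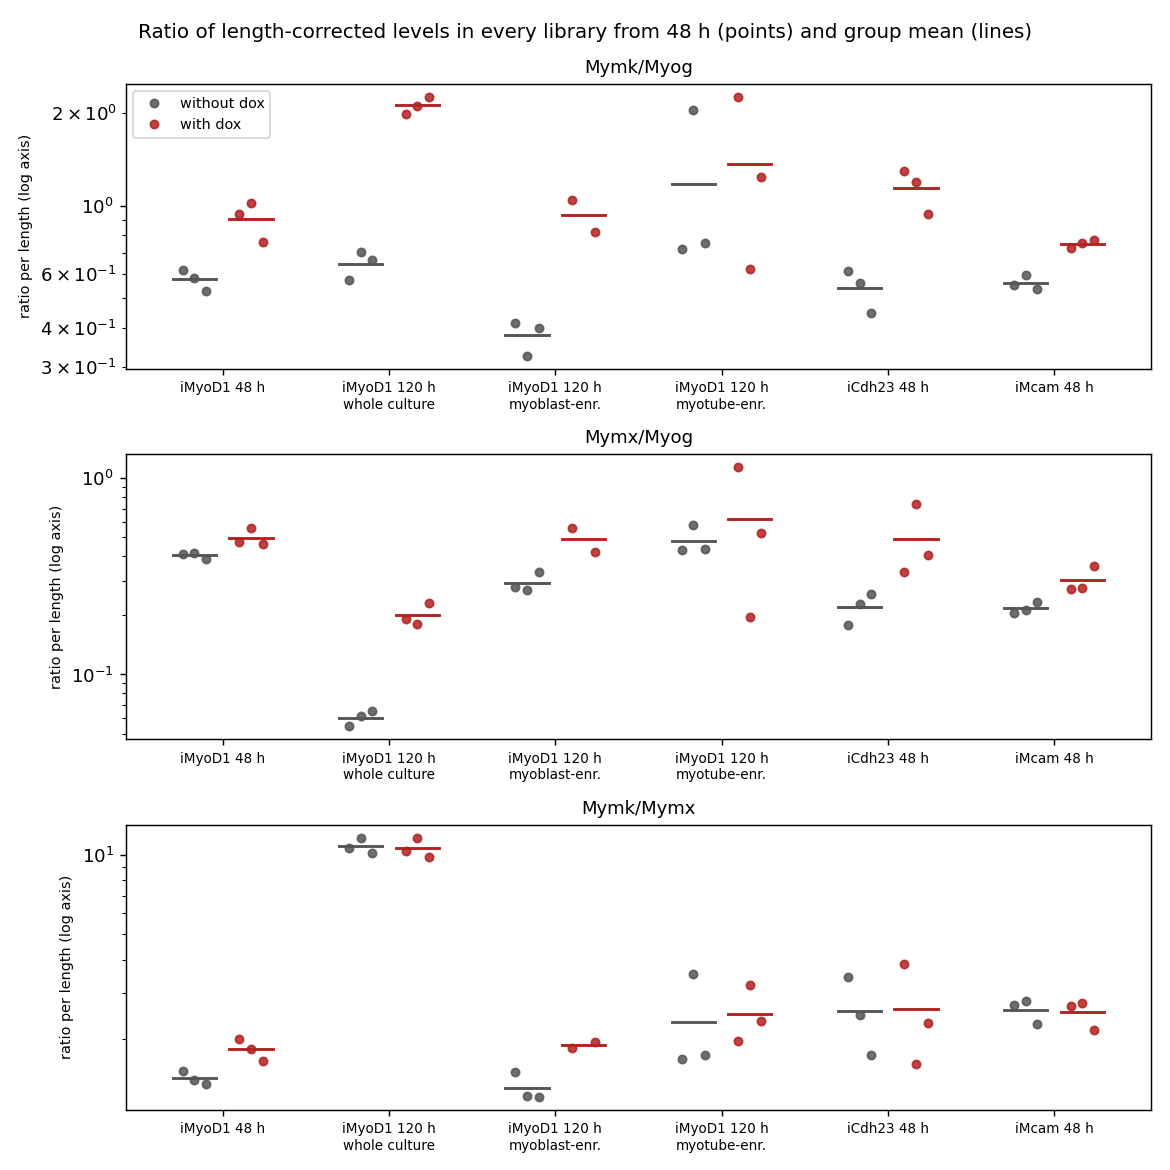
Ratios per transcript length of Mymk to Myog, Mymx to Myog and Mymk to Mymx in the groups at 48 and 120 h, on a log scale. Each point is 1 library, without or with dox. The Mymk to Myog ratio with dox lies above every untreated library of the same line at 48 h, and the Mymk to Mymx ratio in 120 h whole cultures, near 10.8 and 10.6, stands above all other groups.

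A list of 65 genes with roles in myoblast fusion was read beside the fusogens, which are not in it. With dox at 48 h in iMyoD1, 15 of 59 tested genes rose and 28 fell, beside 27.9% and 28.7% of all genes, with a median log2 fold change of −0.21 beside 0.01 over all genes. In iCdh23 10 of 60 rose and 37 fell, beside 31.3% and 32.4% of all genes (median −0.70 beside −0.00). In iMcam 7 of 60 rose and 24 fell, beside 24.2% and 24.8% (median −0.20 beside 0.02). In whole cultures at 120 h 9 of 59 rose and 18 fell, beside 21.4% and 23.7% (median −0.16 beside −0.00). At 0 h 14 of 54 rose and 15 fell, beside 19.1% and 18.7%, and at 24 h 18 of 55 rose and 24 fell, beside 31.1% and 31.7%, with medians of 0.01 and 0.00. In the myoblast-enriched fraction 0 of 60 rose and 4 fell, beside 1.82% and 2.52%, while 19 had an unadjusted p under 0.05 and DESeq2 passed 11. In the myotube-enriched fraction 0 of 60 passed in edgeR or DESeq2, and 0 had an unadjusted p under 0.05.

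The transcription factors of the list that passed fell with dox, apart from Tcf3. Mef2c, a partner of the MyoD family, had log2 fold changes of −1.28 in iMyoD1 at 48 h, −1.43 in whole cultures at 120 h, −5.56 in iCdh23 and −2.66 in iMcam. Myod1 fell in whole cultures at 120 h (−1.62), in iCdh23 (−2.59) and in iMcam (−1.63). Myf5, an early factor of the same family, fell at 0 h (−0.999), at 24 h (−2.96) and in iCdh23 (−2.09). Mef2d fell in iMyoD1 at 48 h (−0.81), and Mef2a at 120 h (−0.88) and in iCdh23 (−1.69). Six4, a homeobox factor gene, fell in iCdh23 (−1.62) and in the myoblast-enriched fraction (−0.56), and Tcf12, which encodes an E-protein partner of MyoD, fell in iCdh23 (−0.80). The values named here and in the next 3 paragraphs are log2 fold changes that passed in edgeR, and 120 h stands for whole cultures.

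The adhesion genes did not all go one way. Cdh15, which encodes M-cadherin, rose in iMyoD1 at 0 h (1.06) and 24 h (1.25) and fell in iCdh23 (−2.16) and iMcam (−1.41). Cdh2, the N-cadherin gene, fell in iMyoD1 at 48 h (−0.80) and 120 h (−0.99), in iCdh23 (−2.75) and in iMcam (−1.15). Itga7, a laminin receptor subunit gene, fell in the same comparisons (−1.18, −1.88, −3.08 and −2.01) and in the myoblast-enriched fraction (−0.79), and Ncam1 fell in the first 4 of these (−0.75, −1.07, −2.38 and −1.34). Itga4, an integrin subunit gene, fell in iCdh23 (−2.16) and iMcam (−2.96), and Vcam1, which encodes a ligand of that integrin, fell at 24 h (−0.75), in iCdh23 (−2.17) and in the myoblast-enriched fraction (−0.83). Jam2, a junctional adhesion gene, rose at 24 h (0.97) and fell in iMyoD1 at 48 h (−0.92), in iCdh23 (−1.40) and in iMcam (−0.99), while its relative Jam3 rose at 120 h (1.01). Neo1, a surface receptor gene, rose in iCdh23 (0.92) and iMcam (0.80). The tetraspanin genes Cd9 and Cd81 fell in iCdh23 (−0.91) and at 120 h (−0.65), and Ptgfrn, which encodes a tetraspanin partner, fell in iCdh23 (−1.08).

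Genes of phosphatidylserine exposure and recognition, a surface signal of fusing cells, also split. Mfge8, which encodes a secreted phosphatidylserine-binding protein, rose at 24 h (0.85), in iMyoD1 at 48 h (1.06), in iCdh23 (1.56) and in iMcam (1.29), and Xkr8, a scramblase gene, rose in iCdh23 (1.39) and iMcam (1.01). The annexin gene Anxa1 fell at 0 h (−0.62), in iCdh23 (−1.93) and in iMcam (−0.93), and Anxa5 fell in iCdh23 (−1.35). Stab2, a phosphatidylserine receptor gene, fell in iMyoD1 at 48 h (−1.05) and in iCdh23 (−1.56). Of the actin remodelling genes, Elmo1 fell at 24 h (−1.67) and in iCdh23 (−3.84) and rose in iMyoD1 at 48 h (0.61), and Arf6, a small GTPase gene, fell at 0 h (−0.66) and in iCdh23 (−0.75). At 120 h Dock1, whose product works with the Elmo proteins, rose (1.05), as did Tanc1 (0.48), while Trio, an exchange factor gene, and Dnm2, a dynamin gene, fell (−1.03 and −1.27). Dnm2 rose in iMcam (0.66), and Arhgap26 rose at 24 h (1.42).

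The membrane repair gene Dysf fell in iMyoD1 at 48 h (−1.07) and 120 h (−1.14), in iCdh23 (−1.99) and in iMcam (−1.26), and its relative Myof fell at 0 h (−0.42) and in iCdh23 (−1.42) and rose at 120 h (0.31). Cav3, the muscle caveolin gene, fell at 120 h (−1.11), in iCdh23 (−5.84) and in iMcam (−2.71). Tmem182, which is known as a brake on fusion, fell in iMyoD1 at 48 h (−2.28) and 120 h (−2.57), in iCdh23 (−7.45) and in iMcam (−2.99), and of the list genes tested it had the lowest log2 fold change in iMyoD1 at 48 h and in iCdh23. Another brake, the TGF-beta receptor gene Tgfbr2, fell at 24 h (−0.80) and rose in iMyoD1 at 48 h (0.39).

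**Figure D4:**
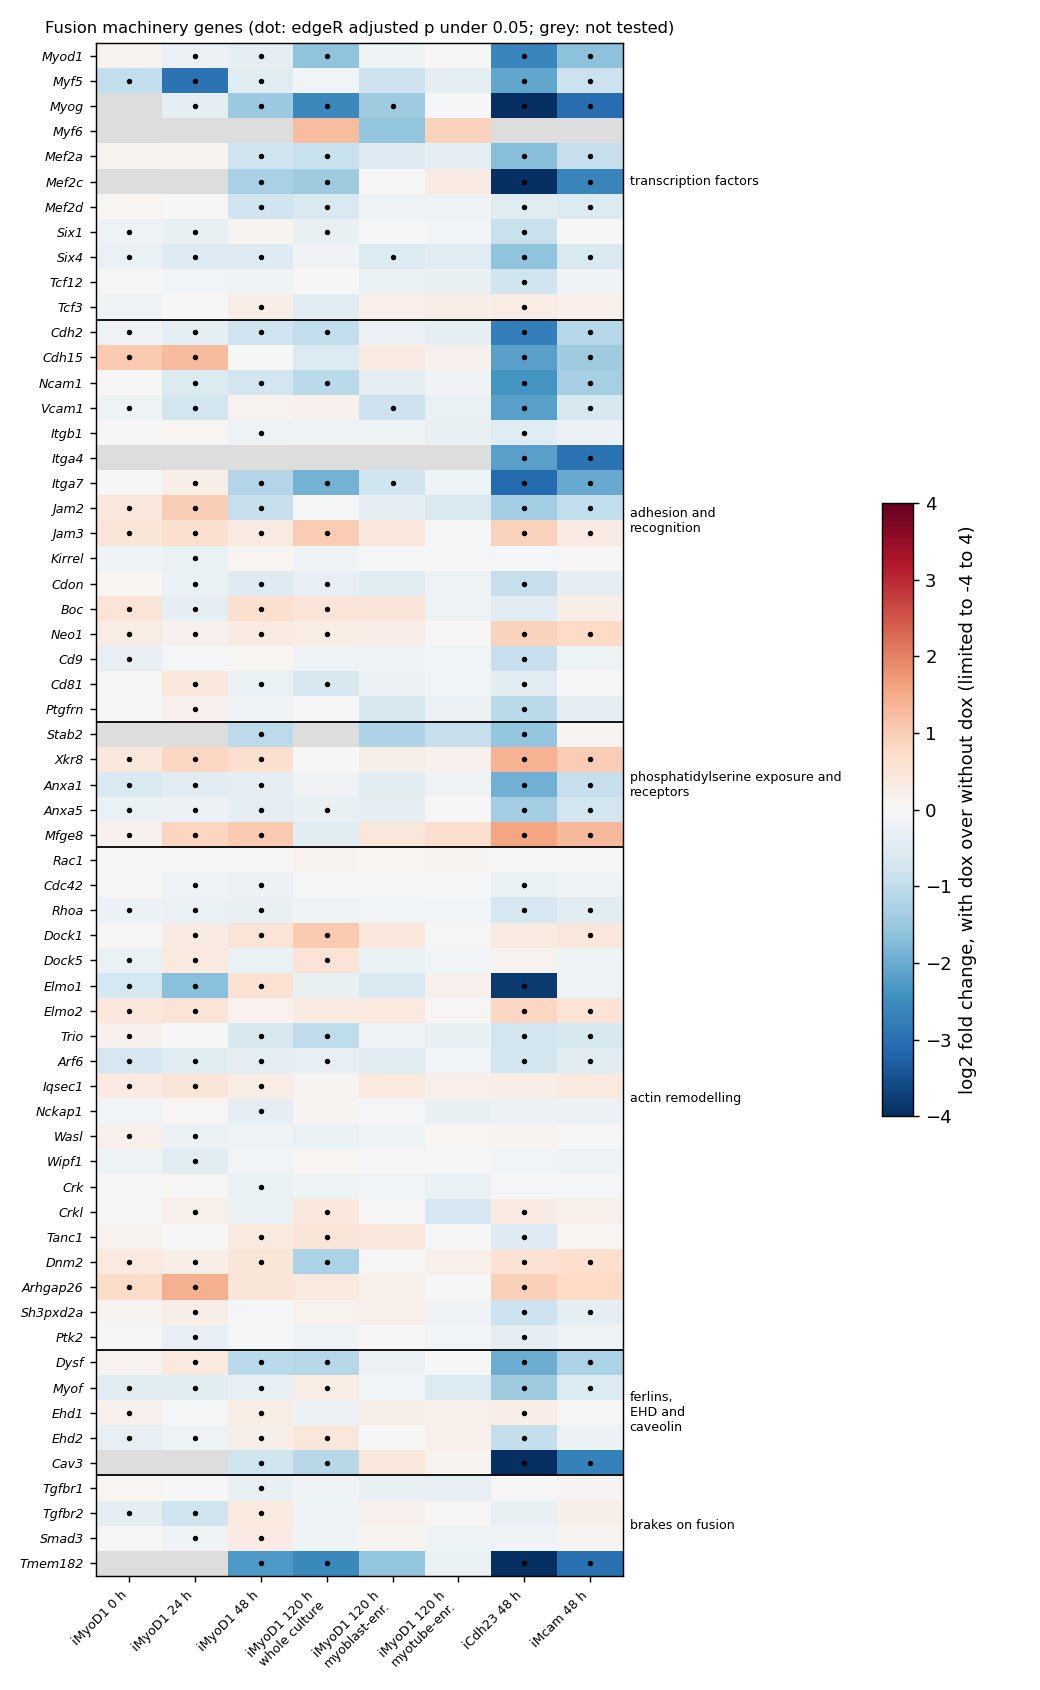
Log2 fold change with dox of the genes of the fusion list tested in at least 1 of the 8 comparisons, by role. Color gives the log2 fold change, limited to 4 in either direction, dots mark edgeR adjusted p-values under 0.05, and grey marks genes that were not tested. Most genes are blue in iCdh23, where 37 of 60 tested list genes fell, and Mfge8 is red in all 3 lines at 48 h.

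The genes whose levels followed each fusogen most closely over the 16 group means differed between Mymk and Mymx. Among 12085 genes with a group mean of at least 5 CPM, the Pearson correlation of log2(CPM + 1) with Mymk was highest for Mybph (0.997), a myosin-binding protein gene, followed by Mylpf, Rbm24, Tnni1, Actc1, Tnnt3, Klhl41, Cap2, Myh3 and Casq2. For Mymx it was highest for Ckm (0.986), the muscle creatine kinase gene, followed by Adamtsl2, Iffo1, Dpt, Ctrb1, Klhl40, Acta1, Chrng, Tnni1 and Rgma. Adamtsl2 is also the annotated gene nearest to Mymk, 7200 bp away. Mymk and Mymx correlated at 0.961, which ranked Mymx 83 among the genes for Mymk and Mymk 37 among those for Mymx. Myog ranked 20 for Mymk (0.986) and 14 for Mymx (0.969). These values describe 16 groups that share cell line, culture days and deposited tables, and by Spearman's rho 3 of the 10 leading genes were shared for each fusogen, Mymk and Mymx correlated at 0.815 (ranks 601 and 290), and Myog ranked 193 for Mymk and 140 for Mymx.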

How the data were processed

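PolyA RNA of 47 libraries in 16 groups was analysed. The authors quantified the reads with nf-core/rnaseq and Salmon and deposited 3 tables of estimated counts per transcript (109617 transcripts, mm10 per the submitters' notes), not scaled to depth or length: 33.3% of the values were not whole within 1e-06. The annotation release is not given in the sources used here. Of the transcripts, 98.7% were found in GENCODE vM21 (GRCm38), which was used for positions and lengths. Here estimated counts were summed per gene and rounded.

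Each comparison used edgeR 4.0.16 (R 4.3.3) on the groups compared (filterByExpr, TMM, quasi-likelihood test, Benjamini-Hochberg adjustment over all genes), and a gene passed at an adjusted p under 0.05. Differences between dox effects were interaction contrasts over 4 groups. Log2 ratios of counts (prior count 0.5) were compared by exact permutation tests within lines or preparations, because 3 libraries against 3 cannot go below p = 0.1. Ratios per length used the full annotated lengths of the transcripts, with no allowance for fragment size. The scripts were tested on simulated data.

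Mymk, Mymx, Myog, the fusion list and the marker lists were chosen with earlier results of these data known. In each comparison with dox, list genes that passed with a fold change over 2, and up to 4 others of lowest adjusted p, are named, besides the 10 genes most like each fusogen over the group means. Alternatives were DESeq2 1.42.0, RLE factors, no filter, all 16 groups in 1 fit, the replicate number as a block, a prior count of 5, Spearman's rho, and each library left out, with joint relabelling of same-numbered fractions added after seeing the data. Replicate numbers were checked as pairs: residuals of same-numbered libraries correlated over 0.1 in all 3 pairs for iMcam with and without dox (0.227 to 0.419) and for the untreated fractions (0.117 to 0.413). The labels record no shared culture day. The lowest chi-square per gene between replicates of a group was 3.04, so no replicate was a copy of another of its group.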

Additional observations from a re-analysis of the deposited data

Results flagged for a closer look

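The dox effect on the fusogens differed between time points or lines in 8 interaction tests with edgeR, with 7 contrasts run for each gene. Of all genes, 34.1% passed for 24 minus 0 h and 43.4% for 48 minus 24 h. The share was 35.8% for iCdh23 minus iMyoD1, 10.6% for iCdh23 minus iMcam and 6.41% for iMcam minus iMyoD1. Leaving out any 1 library changed the call in only 1 of the 8 tests, that of Mymk between iMcam and iMyoD1. With all 16 groups in 1 fit, 4 of the 8 calls were lost: Mymk and Mymx from 24 to 48 h, Mymk from 0 to 24 h, and Mymk between iMcam and iMyoD1. On the log2 scale, the effect on Mymk was lower at 24 h than at 0 h by 2.23 (−2.23) and lower at 48 h than at 24 h by 0.88 (−0.88), and the effect on Mymx was lower at 48 h than at 24 h by 1.58 (−1.58). The test against 0 h rests on at most 32 estimated counts of Mymk in each 0 h library, and those from 24 to 48 h cross the deposited tables. At 48 h the effect in iCdh23 exceeded that in iMyoD1 (−5.41 for Mymk, −4.95 for Mymx) and that in iMcam (−3.65 and −3.58). The effect on Mymk in iMcam exceeded that in iMyoD1 (−1.76).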

How the results depend on the processing

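Of 709 recomputed fold changes and ratios that involve Mymk or Mymx, 645 kept their direction and their side of the threshold, 26 changed sign, 29 lost the call and 9 gained it, and RLE factors changed no call. The cause of these changes was not tested, apart from the fewer libraries in the fits that left one out. The depth limits Mymk and Mymx at 0 and 24 h, where Mymk at 0 h rested on at most 32 counts a library.

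With all 16 groups in 1 fit, which shares 1 estimate of the spread, calls on the log2 scale were lost for dox at 48 h (Mymk −0.85) and 120 h (Mymx −0.96), for 0 to 24 h without dox (Mymx 1.94) and with it (Mymk 0.61), for 48 to 120 h without and with dox (Mymk 0.60 and 0.60), and for the difference in dox effect from 0 to 24 h (Mymk −2.20), from 24 to 48 h (Mymk −0.84, Mymx −1.55) and between iMcam and iMyoD1 (Mymk −1.78). Mymk with dox changed sign at 24 h (−0.0181) and in the myotube-enriched fraction (−0.0128), neither past the threshold. Myog calls were lost in this fit with dox at 24 h (−0.40) and in the myoblast-enriched fraction (−1.42), from 48 to 120 h without and with dox (0.45 and −0.64), and in the dox-effect differences from 24 to 48 h (−1.09), from 48 to 120 h (−1.08) and between iMcam and iMyoD1 (−1.59). With DESeq2 the Myog call at 24 h (−0.38) was lost too, the call for Mymk from 0 to 24 h with dox was lost (0.64), Mymk passed between the untreated fractions (0.85), Mymx passed with dox in the myoblast-enriched fraction (−0.72), and 11 in place of 4 fusion-list genes passed there. Without the filter on low counts Mymx passed in the myoblast-enriched fraction (−0.73) and between iMcam and iMyoD1 (−1.41).

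When single libraries were dropped, the log2 fold change with dox ran from −0.14 to 0.12 for Mymk at 24 h, from −0.24 to 0.0184 for Mymk and −0.93 to −0.54 for Mymx in the myoblast-enriched fraction, and from −0.19 to 0.35 for Mymk, −0.70 to 0.37 for Mymx and −1.10 to 0.49 for Myog in the myotube-enriched one. It ran from 0.52 to 0.82 for Mymk from 0 to 24 h with dox, from −0.34 to 0.46 for Mymx between the untreated fractions and from −0.19 to 1.28 for Myog between those with dox. Differences between dox effects ran from −0.24 to 0.49 for Mymx (24 minus 0 h), from −0.11 to 0.0539 for Mymk (120 minus 48 h), from −0.11 to 0.45 for Mymk (between fractions), and from −2.32 to −1.50 for Mymk and −2.12 to −0.995 for Mymx (iMcam minus iMyoD1). The log2 ratio of Mymk to Mymx ran from −0.0038 to 0.14 at 48 h and from 0.19 to 0.38 at 120 h, and that of Mymx to Myog at 120 h from 0.58 to 1.01.

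With the replicate number as a block, Mymx passed with dox in the myoblast-enriched fraction (−0.92) and in the difference between iMcam and iMyoD1 (−1.46), Mymk in the myotube-enriched fraction changed sign (−0.0424), and no other call on the fusogens changed. In that fit 4051 genes passed with dox in the myoblast-enriched fraction (619 without it), 607 between untreated iCdh23 and iMcam (56) and 1829 in the difference between iMcam and iMyoD1 (929). Over the comparisons of 2 groups with 3 shared numbers, every library correlated best with its own number only for iMcam with and without dox (6 of 6), and in the myoblast-enriched fraction, with 2 shared numbers, 4 of 4 did.

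Counts of genes that passed moved by over 1.5 times under other alternatives too. With all 16 groups in 1 fit they went with dox from 5122 to 828 at 0 h, from 8844 to 4782 at 24 h, from 7846 to 4803 at 48 h and from 0 to 4 in the myotube-enriched fraction, from 9476 to 5666 for 0 to 24 h with dox, from 83 to 1637 and 0 to 243 between fractions without and with dox, and to 3.61 times the 56 genes between untreated iCdh23 and iMcam. Differences between dox effects went from 4922 to 668 (24 minus 0 h), 6545 to 2353 (48 minus 24 h), 5019 to 3088 (120 minus 48 h), 5300 to 3154 (iCdh23 minus iMyoD1), 929 to 79 (iMcam minus iMyoD1), 1548 to 1026 (iCdh23 minus iMcam) and 0 to 2 (between fractions). DESeq2 and the unfiltered fit passed 1616 and 1981 genes with dox in the myoblast-enriched fraction, 773 and 461 between untreated fractions, and 317 and 137 between untreated iCdh23 and iMcam, and DESeq2 passed 1515 in the difference between iMcam and iMyoD1.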
